A study of Mus musculus with 6 samples.

Results

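The tissue kallikreins of the Klk1 subfamily are serine protease genes that lie side by side on mouse chromosome 7. They were read here by 15 of the 41174 noncontrol probes of an Agilent array, carrying 14 of the array's 27962 gene names. A probe was included when its gene name, or an older alias of it, belonged to the subfamily and its design position on the mm7 assembly lay in the cluster on chromosome 7, where the probes run from 40128083 to 40402791. Egfbp2 is an older name of Klk1b26 in RefSeq, so the 14 names cover 13 current symbols. Of the 14 names, 7 had a probe that was well above background throughout at least 1 group of 3 arrays (Klk1, Klk1b3, Klk1b5, Klk1b8, Klk1b16, Klk1b26 and Egfbp2), and the results turn on these. The gene nearest to that requirement without meeting it was Klk1b4, well above background on 2 adrenalectomized arrays and on no sham array. The genes were picked with the difference between these same 6 arrays already known, so every kallikrein difference below is a description without a test.

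The study set hearts of adrenalectomized mice against hearts of sham-operated mice, with 3 biological replicates of each and 1 one-colour array per heart. All were male C57BL/6 mice, an inbred laboratory strain, and were described as wild type. Surgery was done at 1 month of age and hearts were taken 6 months later, while another label gives 6 months as the age itself, so the exact age at collection is uncertain. Adrenalectomy removes the glands that make corticosterone and aldosterone, and the sham mice kept them. RNA came from heart tissue that holds many cell types, so fewer cells of a type and less RNA per cell cannot be told apart.

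Tissue kallikreins are secreted, trypsin-like proteases. Klk1 itself cuts kininogen to release kinins, short peptides that act on bradykinin receptors and widen blood vessels. Its Klk1b neighbours arose by gene duplication in rodents, and several are best known from the mouse submandibular gland, where they process growth factors and where hormones set their levels. Klk1b9 and Egfbp2 were described there as binding proteins of epidermal growth factor, Klk1b26 is also known as a prorenin-converting enzyme, and Klk1b16 as gamma-renin.

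Because these genes are close copies, the bases that these 60-base probes share were examined first, from their sequences in the scanner files. The Egfbp2 probe (chr7:40190180-40190608) and the Klk1b3 probe (chr7:40375530-40375588) are shown because they share a run of 23 identical bases, in capitals, yet gave different results between the groups.
Egfbp2: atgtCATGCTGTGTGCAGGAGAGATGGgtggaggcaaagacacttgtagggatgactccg
Klk1b3: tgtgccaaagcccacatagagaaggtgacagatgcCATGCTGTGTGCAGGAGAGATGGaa

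The Klk1b26 probe (chr7:40189980-40190135) and the Klk1b8 probe (chr7:40128083-40128142) are shown as another pair of which 1 was lower and 1 was not, with a shared run of 12 bases in capitals. For Klk1b26 this is the longest run with any other kallikrein probe, while Klk1b8 shares 17 bases with Klk1b4. Over the 28 bases where they can be laid on each other, 25 are the same.
Klk1b26: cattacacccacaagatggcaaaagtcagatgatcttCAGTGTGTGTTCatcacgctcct
Klk1b8: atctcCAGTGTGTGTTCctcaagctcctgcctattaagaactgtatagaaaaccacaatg

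Of the 105 pairs among the 15 probes, 3 shared a run of 20 bases or more: Klk1b4 with the second Klk1 probe (28 bases), Egfbp2 with Klk1b3 (23 bases) and Klk1b11 with Klk1b27 (22 bases). A run under 10 bases was the longest for 95 pairs. The probes were compared only with each other and not with transcripts, so a short run does not show that probes read different genes. The Klk1b26 and Egfbp2 probes, for which the design lists the same transcripts, had a longest shared run of 6 bases. The Klk1b16, Klk1b5 and Klk1b9 probes hold AATAAA, the letters of the common polyadenylation signal. Those of Klk1b16 and Klk1b5 matched at 42 of the 50 bases over which they overlap, with no identical run longer than 9 bases. Beyond the 15 probes, 1 other name on the array had a probe that shared 20 bases with any of them. It is V00829, which lies in the cluster and is described as kallikrein sequence. It shares them with Klk1b4 and the second Klk1 probe.

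**Figure D1:**
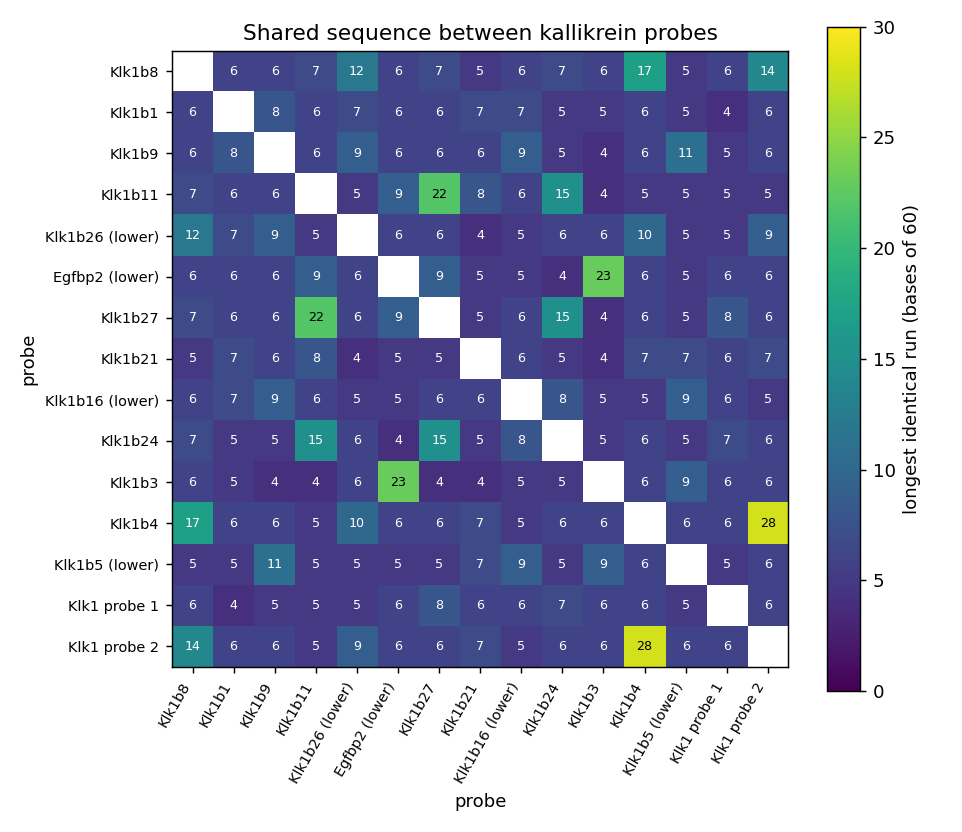
Longest run of identical bases between each pair of the 15 kallikrein probes, in bases of 60, with probes in genomic order on both axes; "lower" marks the 4 probes whose adrenalectomized values all lay below the sham values. The longest shared runs are 28, 23 and 22 bases, and none of the 3 joins 2 of the marked probes. Probes were compared with each other only, not with transcripts.

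The array design lists more than 1 transcript for 5 of the 15 probes. For both the Klk1b26 and the Egfbp2 probe it lists the transcripts of Klk1b26 and Egfbp2, the probes lie 44 bases apart, and the RefSeq gene table holds Egfbp2 as an older name of Klk1b26. This pair therefore reads neighbouring stretches of what the annotation treats as 1 gene. The same table lists the spelling Egfbp-2 under Klk13, which lies outside the window. The first Klk1 probe lists Klk1, Klk1b3, Klk1b9 and Klk1b11, the Klk1b21 probe lists Klk1b21, Klk1b24 and Klk1b11, and the Klk1b24 probe lists Klk1b24 and Klk1b22. The Klk1b3, Klk1b5, Klk1b8 and Klk1b16 probes list only their own gene. For 6 probes the design span exceeds the 60 bases of the probe, up to 2056 bases for the first Klk1 probe, as for probes that cross an intron.

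Of all noncontrol probes, 60.5% to 66.8% were well above background on the adrenalectomized arrays and 57.7% to 60.2% on the sham arrays. The 75th percentile of the processed signal, to which each array was scaled, was 768, 841 and 806 intensity units on the adrenalectomized arrays and 667, 645 and 924 on the sham arrays. Adrenalectomized replicates 2 and 3 were on a second slide with no sham array, while replicate 1 shared the first slide with all 3 sham arrays, so slide and group can be separated only through replicate 1. All 8 heart markers examined, among them Myh6 and Tnnt2, were well above background. Precision is set by the few arrays, and the median standard error (SE) of a log2 difference was 0.14.

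In adrenalectomized hearts, 4 of the 7 kallikrein probes were lower on every array than on any sham array: Klk1b26, Egfbp2, Klk1b16 and Klk1b5. The other 3 probes, Klk1b8, Klk1b3 and the first Klk1 probe, had overlapping groups and log2 differences between -0.19 and 0.17. Across the array, 9.61% of the 23989 probes tested had all adrenalectomized values below all sham values, and 0.684% were at least 2-fold lower, as these 4 were. The genes were chosen from this contrast, so their share is not a result.

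Klk1b26 gave processed intensities of 9.27, 25.9 and 8.43 in the 3 adrenalectomized hearts, against 128, 136 and 168 in the 3 sham hearts. No adrenalectomized array was well above background and every sham array was. On the log2 scale, with the 75th percentile of each array at 0, the level was -5.99 ± 0.85 in adrenalectomized hearts and -2.36 ± 0.11 in sham hearts (SD, n = 3 each). The adrenalectomized values are bounds only. On this background-subtracted scale the drop was 5.07-fold against the dimmest probes that were well above background on those arrays. This bound is approximate and holds for this scale only, and 2 other background corrections gave log2 differences of -1.84 and -1.41. On slide 1 alone, with 1 adrenalectomized array, the bound was 4.35-fold. The measured difference of -3.63 includes 2 intensities that the scanner software had replaced by a surrogate, as does that of Klk1b16.

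Egfbp2, read by the neighbouring probe, remained measurable in every heart. Its intensities were 91.4, 110.1 and 87.1 in adrenalectomized hearts, against 269, 246 and 299 in sham hearts. The log2 levels were -3.07 ± 0.14 in adrenalectomized hearts and -1.44 ± 0.17 in sham hearts (SD, n = 3 each), a difference of -1.63 (SE 0.13), or 0.323 of the sham level. Within slide 1 the difference was also -1.63. The groups did not overlap, with every adrenalectomized heart below every sham heart.

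Klk1b16, the gamma-renin gene, was read by a probe at chr7:40315381-40315440, the other probe that dropped to background. Intensities were 9.59, 7.30 and 7.46 in adrenalectomized hearts, against 93.8, 94.9 and 106 in sham hearts. Again all sham arrays and no adrenalectomized array were well above background. The log2 level was -6.64 ± 0.28 in adrenalectomized hearts and -2.90 ± 0.19 in sham hearts (SD, n = 3 each). The approximate bound was a drop of 3.48-fold on this scale, and of 2.98-fold within slide 1. Klk1b26 and Klk1b16 met the requirement on detection through the sham arrays alone, so they had to differ between the groups.

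Klk1b5 (chr7:40394484-40394542), 204 kb from Egfbp2 at the other end of the cluster, behaved much as Egfbp2 did. Intensities were 118, 95.7 and 84.1 in adrenalectomized hearts, against 284, 261 and 296 in sham hearts, all well above background. Log2 levels were -3.03 ± 0.29 in adrenalectomized hearts and -1.39 ± 0.22 in sham hearts (SD, n = 3 each), a difference of -1.64 (SE 0.19), or 0.321 of the sham level. Adrenalectomized replicate 1 was the highest of its group, and within slide 1 the difference was -1.31.

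**Figure D2:**
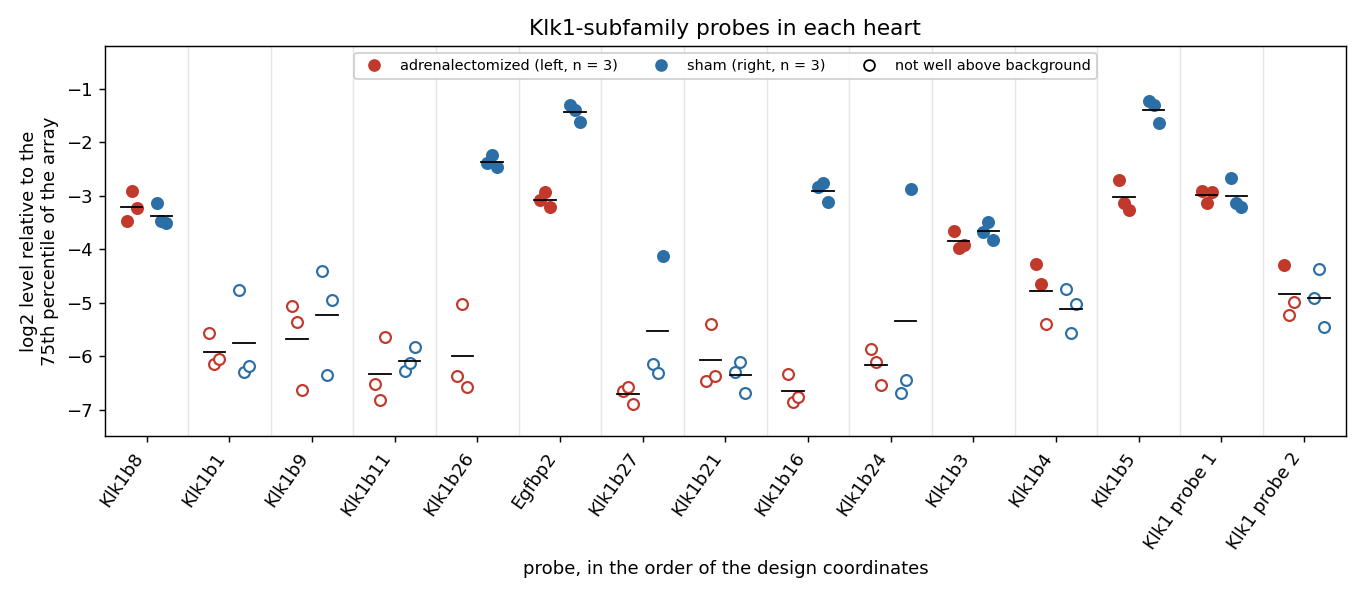
Log2 level of each of the 15 kallikrein probes on each array, with the 75th percentile of an array at 0, with adrenalectomized hearts on the left and sham hearts on the right of each probe (3 each); open circles were not well above background and short lines are group means. Egfbp2 and Klk1b5 are filled in both groups and separated, Klk1b26 and Klk1b16 are open on all adrenalectomized arrays, and Klk1b8, Klk1b3 and the first Klk1 probe overlap.

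Klk1, the kinin-releasing enzyme that gives the subfamily its name, had intensities of 102, 96.1 and 106 at its first probe (chr7:40399353-40401408) in adrenalectomized hearts, against 105, 73.3 and 99.2 in sham hearts. The difference was 0.02 (SE 0.17). Sham replicate 2 had the lowest intensity of all 6 arrays, and sham replicate 3 the lowest scaled log2 level (-3.22). For this probe the design also lists Klk1b3, Klk1b9 and Klk1b11. Klk1b3 had 60.4, 53.1 and 53.5 in adrenalectomized hearts and 52.4, 57.4 and 65.0 in sham hearts, a difference of -0.19 (SE 0.14), and of -0.0056 within slide 1. Klk1b8, for which no role is given here, had 68.9, 112 and 86.2 in adrenalectomized hearts and 75.7, 58.2 and 80.9 in sham hearts, a difference of 0.17 (SE 0.18). The difference was smaller than its SE for Klk1 and Klk1b8 and larger for Klk1b3, and the values of the groups overlapped for each of the 3.

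The Egfbp2 and Klk1b3 probes thus hold a stretch of 23 bases in common. The Egfbp2 signal differed by -1.63 between the groups, while that of Klk1b3 differed by -0.19. The lower probes were spread along the cluster, apart from the neighbouring Klk1b26 and Egfbp2 probes. From the first probe of the cluster, the lower ones lay at 61.9, 62.1, 187 and 266 kb, and the 3 with overlapping groups at 0, 247 and 271 kb. Klk1b5 lay between Klk1b3 and Klk1, both of which overlapped.

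**Figure D3:**
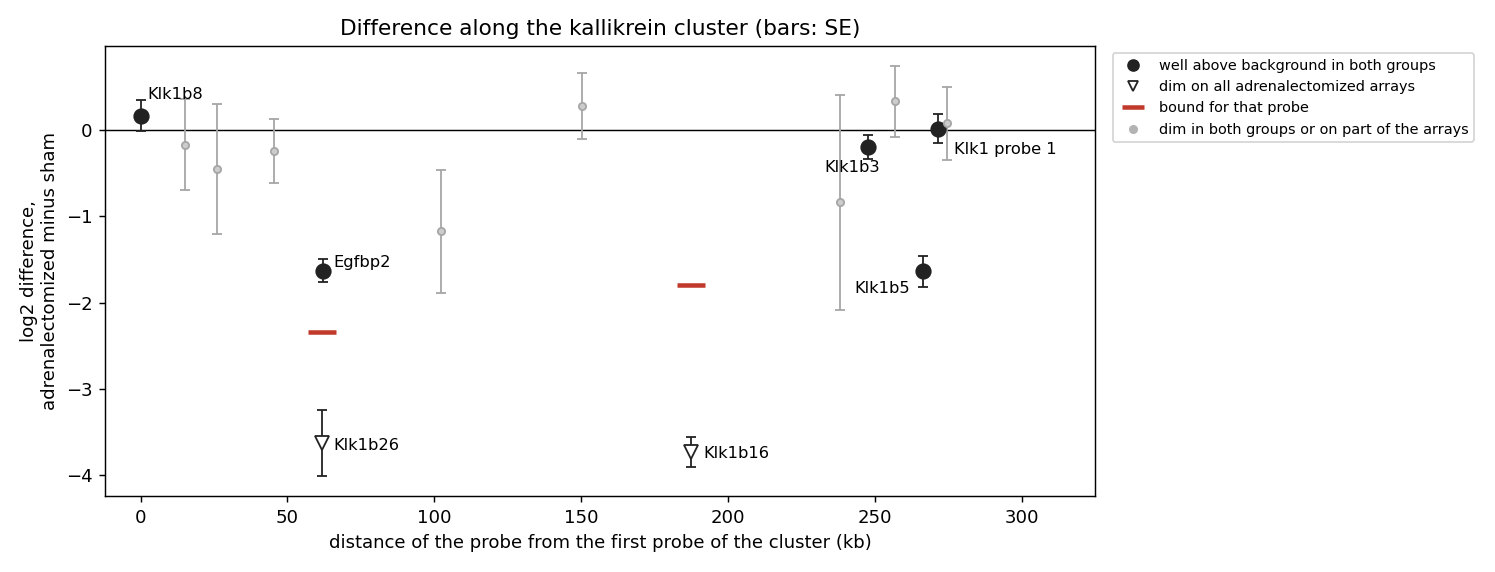
Log2 difference of each kallikrein probe (adrenalectomized minus sham, bars are SE) against its distance from the first probe of the cluster in kb; open triangles are the fitted differences of probes that were dim on all adrenalectomized arrays, red dashes their bounds, and grey points the 8 probes without complete detection in either group. Lower and overlapping probes are interspersed along the 274.709 kb of the cluster.

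The remaining 8 probes were not well above background on all arrays of either group, and their intensities ran from 6.49 to 126. Klk1b1, Klk1b9, Klk1b11 and Klk1b21 were well above background on no array. Klk1b24 and Klk1b27, which in mice are known from Leydig cells of the testis, were detected in sham replicate 3 alone. There Klk1b24 reached 126, against 13.1, 12.2 and 8.70 in adrenalectomized hearts and 6.49 and 7.39 in the other sham hearts. Klk1b27 reached 52.9 in that heart, against 6.74 to 8.86 in adrenalectomized hearts and 9.37 and 8.07 in the other sham hearts. After scaling, its groups did not overlap, but all of its values save that one were at background, and the unscaled intensities did overlap. The Klk1b24 and Klk1b27 probes match at 47 of the 53 bases where they can be laid on each other. Whether they read the same transcript in that heart was not tested. The Klk1b4 probe gave 39.4, 33.5 and 19.1 in adrenalectomized hearts, against 24.8, 13.6 and 28.4 in sham hearts. The second Klk1 probe, with which it shares 28 bases, gave 39.3, 22.5 and 25.4 in adrenalectomized hearts and 22.1, 31.4 and 21.0 in sham hearts. Both had overlapping groups.

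Another 3 probes in the window are described as kallikrein sequence but carry no gene name of the subfamily. V00829 gave 73.0, 81.6 and 42.0 in adrenalectomized hearts and 101, 41.6 and 48.5 in sham hearts. NP064425 gave 644, 815 and 311 in adrenalectomized hearts and 447, 309.6 and 445 in sham hearts. Both had overlapping groups. The probe 1700127D06Rik, a name that RefSeq lists under the pseudogene Klk1b7-ps, was well above background on no array.

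The size of the drop depended on how background was removed, since these are dim probes. Before any background was subtracted, the mean spot intensity of Klk1b26 was 88.1, 97.2 and 79.5 in adrenalectomized hearts, against 184, 193 and 221 in sham hearts. That of Egfbp2 was 156, 166 and 150.1 in adrenalectomized hearts, against 292, 271 and 322 in sham hearts. On this scale the log2 differences of these neighbouring probes were -1.29 and -1.02, smaller than the bound given for Klk1b26, whereas on the background-subtracted scale they were -3.63 and -1.63. Klk1b16 read 96.9, 83.5 and 76.3 in adrenalectomized hearts and 169, 176 and 188 in sham hearts before subtraction. The local background around the 7 probes was 44.0 to 54.5 on slide 2 and 63.0 to 84.0 on slide 1, and its part in the differences was not tested beyond the alternatives given here.

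Across 16 alternative ways of processing the scans, including omission of each array in turn, the 4 lower probes were lower in all 16. Most of this was fixed in advance or not particular to these probes. Their groups did not overlap, so omission of an array or the slide as a fixed block could not change the sign. The deposited table and the replicate block only repeated the differences given above. Median centring, scaling to a percentile over detected probes, and kept outlier spots each moved all 7 probes by the same small amount. A shift common to all probes is no separate check of any of them. The 16 alternatives are therefore not 16 separate checks, for these 4 probes or for Klk1b3. Klk1b26 ranged between -4.11 and -1.29, Klk1b16 between -3.90 and -1.17, Egfbp2 between -1.72 and -1.02 and Klk1b5 between -1.81 and -1.06. Klk1b3 was lower in 16 of 16 (from -1.11 to -0.0056), Klk1 in 9 and Klk1b8 in 2. Normexp correction on the local background made all 7 probes lower without overlap, with Klk1b8, Klk1 and Klk1b3 at -0.88, -0.84 and -1.11. The same correction moved the median difference of 6037 similarly dim genes to -0.71, against 0.04 with the processed signal. Under it, Klk1b26, Klk1b16, Klk1b5 and Egfbp2 differed by -1.84, -1.89, -1.42 and -1.39.

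**Figure D4:**
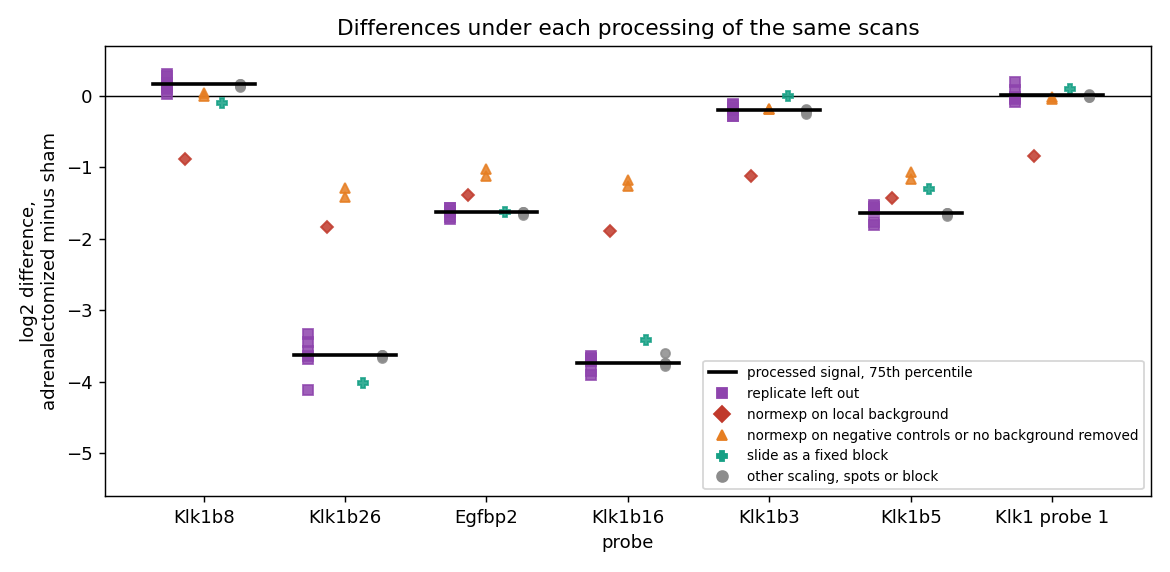
Log2 difference (adrenalectomized minus sham) of the 7 kallikrein probes in each of the 16 alternatives, by kind of alternative; the black line is the value from the processed signal scaled to the 75th percentile. Klk1b26, Egfbp2, Klk1b16 and Klk1b5 stay below 0 throughout, and only normexp on the local background takes Klk1b8 and Klk1 to -0.88 and -0.84.

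The start regions of the genes were compared because part of the family was lower and part was not. RefSeq places the starts of 14 Klk1-subfamily genes on GRCm38.p6, all on the plus strand, and their 300-base promoters (250 before and 50 after the start) were 77.1% to 97.7% identical in pairs, with a median of 85.2%. The Klk1b26 promoter was 90.9% identical to that of Klk1b16, 86.2% to that of Klk1b5 and 86.6% to that of Klk1b3. The Klk1b5 promoter was 91.2% identical to that of Klk1b3 and 84.4% to that of Klk1b16. The 100 bases before the start are shown for the 3 lower genes with an entry and for Klk1b3 (chr7:44012578-44012677, chr7:44137190-44137289, chr7:44216374-44216473 and chr7:44198091-44198190), with the letters TTTAAA in capitals.
Klk1b26: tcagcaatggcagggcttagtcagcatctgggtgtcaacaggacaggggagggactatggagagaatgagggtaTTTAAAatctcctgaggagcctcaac
Klk1b16: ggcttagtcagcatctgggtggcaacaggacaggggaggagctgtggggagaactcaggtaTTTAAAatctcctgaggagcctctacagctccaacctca
Klk1b5: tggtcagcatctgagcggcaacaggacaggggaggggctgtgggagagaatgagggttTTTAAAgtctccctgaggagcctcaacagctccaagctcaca
Klk1b3: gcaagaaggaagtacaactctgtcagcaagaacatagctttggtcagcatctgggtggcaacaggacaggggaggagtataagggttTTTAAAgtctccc

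The letters AGAACA, the half-site that steroid receptors bind, were searched on both strands and occurred in 2 of the 14 promoters, those of Klk1b24 and Klk1b3, and in 19.0% of all 32851 promoters. The inverted repeat of AGAACA with 3 bases between occurred in 0 of the 14 and in 3 of all promoters (0.00913%). TATAAA on the gene's strand occurred in 0 of the 14 and in 8.32% of all. TTTAAA, searched after the sequences had been read, occurred in 13 of the 14 and in 13.2% of all promoters. Its longer form TATTTAAA, which contains it, was also not among the motifs planned. It occurred in Klk1b26, Klk1b16 and Klk1b11, and in 0.971% of all promoters. The 14 promoters are close copies, so counts among them are not independent and cannot be weighed against the share of all promoters. Klk1b26 and Klk1b16 were lower in adrenalectomized hearts and Klk1b11 was not detected, while Klk1b5, also lower, has TTTAAA without the longer form. These are matches of letters in a fixed window and say nothing of binding.

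Genes that act with the tissue kallikreins were taken from lists, and these were tested with limma over 16948 genes, where a Benjamini-Hochberg adjusted p under 0.05 was reached by 0.0295% of genes upward and 0.0118% downward. Of the 18 kinin system genes, 15 were measured, and 0 rose and 0 fell, with 4 at an unadjusted p under 0.05, a level reached by 12.2% of all genes tested. Their median difference was 0.04, against 0.03 for all genes. Kng1, the kininogen from which kinins are cut, had log2 levels of -3.54, -1.40 and -2.90 in adrenalectomized hearts, against -5.26, -4.72 and -3.36 in sham hearts. Adrenalectomized replicate 2 was the highest, replicate 1 lay below sham replicate 3, and the difference was 1.83 (SE 0.65, limma adjusted p = 0.353). Kng1 was well above background on all adrenalectomized arrays and on 1 sham array. Kng2 and F12 were detected on no array and Klkb1, the plasma kallikrein, on 1 sham array.

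The kinin receptors and the enzymes that break kinins down did not pass either. Bdkrb2, the constitutive bradykinin receptor, had log2 levels of -4.04, -3.92 and -3.04 in adrenalectomized hearts, against -4.41, -4.55 and -5.00 in sham hearts, and was well above background on no sham array. Against the approximate bound it was 1.69-fold higher, with a fitted difference of 0.99 (SE 0.29, limma adjusted p = 0.283 for the fitted difference). The fitted difference turned to -0.88 with normexp on the local background. Bdkrb1, the inducible receptor, differed by -0.03 (SE 0.18, limma adjusted p = 0.971). Ace, which inactivates bradykinin, differed by -0.23 (SE 0.13, limma adjusted p = 0.515). Cpn2, the carrier subunit of a carboxypeptidase that trims kinins in plasma, had -2.75, -1.26 and -1.81 in adrenalectomized hearts, against -3.92, -3.18 and -3.01 in sham hearts. Its groups did not overlap, yet the difference of 1.43 (SE 0.40) did not pass (limma adjusted p = 0.269). Mme, neprilysin, differed by 0.35 (limma adjusted p = 0.383).

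Of 12 kallikreins outside the subfamily, 11 were on the array and 5 were measured. None rose or fell in limma, 0 had an unadjusted p under 0.05, and the median difference was -0.02. Klk7, a protease of the shedding skin barrier, was well above background on no sham array and had a fitted difference of 0.39 (limma adjusted p = 0.502). Its groups overlapped, with -4.27 in adrenalectomized replicate 3 and -4.01 in sham replicate 1. The fitted difference was -1.05 with normexp on the local background. Klk15 differed by 0.27 (limma adjusted p = 0.635) and turned to -0.98 with that correction (limma adjusted p = 0.0242). The correction also called Klk4 (-0.70) and Klk7 lower. It called 4729 of 16948 genes lower and moved the median difference of dim genes to -0.71, so these calls are not particular to kallikreins. Klk10 differed by -0.11 (limma adjusted p = 0.881).

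Substrates, partners and inhibitors of the subfamily had 16 members on the list and 11 measured, with a median of -0.15, 0 called in either direction and 3 of the 11 at an unadjusted p under 0.05 (12.2% of all genes). Agt, angiotensinogen, the substrate of renin, had log2 levels of 0.32, 0.39 and -1.38 in adrenalectomized hearts, against 0.96, 1.41 and 0.87 in sham hearts. Every adrenalectomized heart was lower, and replicate 3 lay far below the others. The difference was -1.30 (SE 0.46, limma adjusted p = 0.354). A2m, a broad protease inhibitor, differed by -0.43 (limma adjusted p = 0.376), and Igfbp3, a binding protein of insulin-like growth factors, by -0.46 (limma adjusted p = 0.394), and by -0.06 at its other probe. Egf, a growth factor with which these proteases associate in the salivary gland, differed by -0.22 (limma adjusted p = 0.520). The renin gene Ren1 was detected on 2 sham arrays at most and was not tested.

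Of 8 steroid and thyroid hormone receptors, 4 were measured, with a median of -0.47 and 0 called. Thra and Thrb, the thyroid hormone receptors, differed by -0.58 and -0.51 (limma adjusted p = 0.265 and 0.298), each with an unadjusted p under 0.05 (12.2% of all genes), and by -0.12 and -0.73 at their other probes. Nr3c1, the glucocorticoid receptor, differed by 0.07 (limma adjusted p = 0.888), and its 4 tested probes ran from -0.44 to 0.07. Nr3c2, the mineralocorticoid receptor, differed by -0.42 (SE 0.39, limma adjusted p = 0.694), with sham replicate 1 the highest array.

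**Figure D5:**
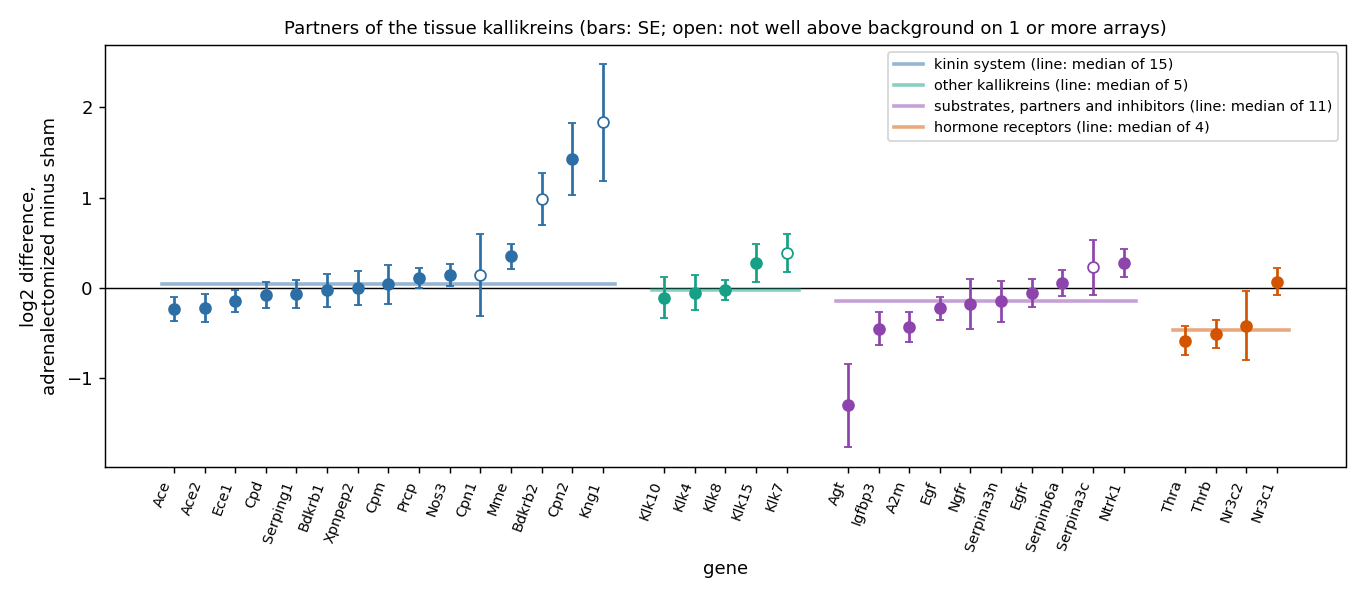
Log2 difference (adrenalectomized minus sham, bars are SE) of measured genes of 4 lists, with the median over all measured genes of each list as a line; open circles were not well above background on at least 1 array. No gene shown passed limma's threshold, and Kng1 at 1.83 and Agt at -1.30 are the ends of the range.

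Other genes in the window or within 0.5 Mb on either side of it numbered 53, of which 36 were measured. Their median difference was 0.07, 13 were negative and 23 positive, 0 passed in limma, and 3 of the 36 had an unadjusted p under 0.05, against 12.2% of all genes. Spib, a transcription factor of B cells and plasmacytoid dendritic cells, differed by 1.29 (SE 0.41, limma adjusted p = 0.302). Lrrc4b, a synaptic adhesion protein, differed by -0.31 (limma adjusted p = 0.378) and 2310044H10Rik by 0.25 (limma adjusted p = 0.406).

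Among 11034 named genes well above background on all 6 arrays, those whose centred log2 profile came nearest to the mean of the 5 fully detected kallikrein probes were Bex4, Irx3, Dbt, Lrtm1 and Arsj. Their root mean square distances over the 6 arrays were 0.062, 0.066, 0.078, 0.095 and 0.096. That mean blends 2 lower probes with 3 overlapping ones and has a difference of -0.65. The genes were found by their likeness, so their differences of -0.58 to -0.69 were not tested further here. Nearest to the mean of Egfbp2 and Klk1b5, a profile chosen after their values were seen, was Tnni2, fast skeletal troponin I, at a distance of 0.295.

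Salivary gland, kidney, pancreas and Leydig cells also make tissue kallikreins, so their markers were read on the same arrays. Of 14 salivary gland markers on the array, 5 were well above background (among them Lpo, Amy1, Aqp5 and Egf; 2 of the 5 are also on the list of partners), and Smgc, Muc19, Bpifa2, Pip, Dcpp1, Dcpp2, Smr2 and Smr3a were so on no array. Their summed level, in units of the 75th percentile, was 9.43 to 12.9 in adrenalectomized hearts and 8.46 to 9.32 in sham hearts, higher where the 4 kallikrein probes were lower. The part of other tissues in the kallikrein values was not tested further. For kidney tubule, 2 of 6 markers were detected, with sums of 0.601 to 1.38 in adrenalectomized and 0.534 to 0.718 in sham hearts. For exocrine pancreas 4 of 6 were detected, with sums of 0.691 to 0.798 and 0.536 to 0.633 in adrenalectomized and sham hearts. For Leydig cells 2 of 4 were detected, with sums of 1.87 to 2.62 in adrenalectomized and 2.33 to 2.52 in sham hearts, and Lhcgr was detected on no array. None of these markers passed the limma test.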

How the data were processed

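Per the labels' protocols, 50 ng of heart RNA was amplified and 5 µg of the cDNA labelled with Cy3. Scans were read with Feature Extraction 9.5.3.1 (protocol GE1-v5_95_Feb07, design on mm7), per the file headers. The deposited processed signal is, per the file headers, a linear intensity per spot with background subtracted and trends across the slide removed, but without scaling between arrays. For all 45018 spots of each array the deposited value table repeats this intensity, uncentred, with medians of 75.1, 92.2 and 80.9 for adrenalectomized and 70.8, 68.1 and 84.4 for sham arrays. Low intensities carry a surrogate value.

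From these, log2 intensity minus the 75th percentile of each array was computed, without control and outlier spots. A RefSeq accession named 22951 (55.7%) of the 41174 noncontrol probes, among them 14 of the 15 kallikrein probes. A probe was tested when well above background on all 3 arrays of a group, and a gene was read by its tested probe of highest mean. For 66 genes 1 or more arrays were missing and the fit dropped them. A bound compares the brighter group with the dimmest signal well above background on each array, or the probe's own where that is higher. It is not a strict limit, since a probe that is not well above background can be brighter. On sham replicate 1 such a probe, Klk7, was at -4.01, against -4.41 for the dimmest signal well above background. Differences were fitted with limma 3.58.1 in R 4.3.3 (lmFit and eBayes, threshold 0.05), after a check on simulated data. Python 3.11.15, numpy 2.4.6, pandas 2.3.3 and matplotlib 3.10.9 did the rest. Promoters are those of RefSeq on GRCm38.p6.

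The members, lists and alternatives were chosen with earlier results of these data known. Named genes were every kallikrein probe; of each list the genes past the threshold or otherwise the 3 of smallest p; Kng1, Kng2, Bdkrb1, Bdkrb2, Ace, Klkb1, Nr3c1 and Nr3c2; and the 5 nearest profiles. A few list genes are not reported here. Egf, Ren1, F12 and Tnni2 were added later, with values known. The alternatives comprised 2 normexp corrections (offset 50), other scalings, the deposited table, kept outlier spots, other filters, the slide or the replicate number as a block, each array left out, and no background removed. Deviations of same-numbered hearts correlated weakly and differed in sign (0.16, 0.16 and -0.16). Adrenalectomized replicates 1 and 2 correlated best with the sham heart of their own number, and replicate 3 with sham replicate 2. The numbers were not treated as pairs in the main fit, and this check cannot exclude pairing.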

Additional observations from a re-analysis of the deposited data

How the results depend on the processing

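The calls over all genes depended on the processing, and the cause was not tested. Against 5 higher and 2 lower genes, normexp on the local background gave 1188 and 4729, and normexp on negative controls 0 and 0. Quantile normalization gave 2 higher, median centring 3 higher and 5 lower, and a 75th percentile over detected probes or kept outlier spots 0 higher. There were 0 higher and 1 lower with no background removed (added after seeing the data), with detection required on all 6 arrays, with no filter, with the slide as a fixed block and with the replicate block. Omission of single arrays gave 0 to 39 higher (39 without adrenalectomized replicate 1) and 1 to 6 lower (6 without sham replicate 2). For the 4 lists and the flanking genes, 0 passed in every alternative but normexp on the local background. That correction called 7 higher and 21 lower, among them Thrb, A2m, Nr3c2, Bdkrb2 and Klk15 lower. Over all 16948 genes it called 1188 higher and 4729 lower. The list calls are therefore not a result about their members. The count of kallikrein probes lower without overlap was 4, 7 with that correction, 4 with the replicate block and 4 to 5 with an array left out, where the fifth without adrenalectomized replicate 1 was Klk1b3. Signal over background is what limits these probes: Klk1b26 and Klk1b16 have only a bound in adrenalectomized hearts, 8 of 15 probes were not tested, and near-identical copies leave the gene each probe read uncertain.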
